A study of Mus musculus with 14 samples.

Results

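Cytosolic ribosomal protein genes encode the protein part of the ribosome that translates nuclear messages. The genes were taken by symbol (Rpl, Rps, Rplp and Rpsa names of protein-coding genes in the GENCODE vM21 annotation, without the S6 kinase genes and without names marked as pseudogenes), which gave 83 of the 54524 genes in the count table. Of these, 51 belong to the large subunit and 32 to the small subunit, and 6 are variant copies of another member (Rpl3l, Rpl7l1, Rpl10l, Rpl22l1, Rpl39l and Rps27l). A total of 82 passed the filter on low counts. The exception was Rpl10l, an intronless relative of Rpl10 that is known from testis, which had 1 read in 1 library and none in the other 13.

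RNA was sequenced from liver sinusoidal endothelial cells (LSECs), the fenestrated cells that line the liver capillaries, of male Balb/c mice. Animals were 10 to 12 weeks old by the labels, and the methods give a slightly different range. Carbon tetrachloride (CCl4), a toxin that hepatocytes around the central vein turn into a radical, was given once into the peritoneum in mineral oil at 0.5 µl per g of body weight, and cells were taken at day 1 (2 libraries), day 3 (4 libraries) or day 7 (4 libraries). The day 1 group is smaller because, by the paper, 2 samples had too low an RNA integrity number. The 4 healthy libraries came from mice that were not injected, so CCl4, its oil vehicle and the injection cannot be told apart. The sort kept live CD32+ cells that lacked F4/80 and autofluorescence, to which the methods add a gate against CD45. Where libraries of a group were not made from separate animals, the p-values measure only the spread between these samples.

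A ribosome is built in the nucleolus, where ribosomal RNA made by RNA polymerase I is processed and joined with ribosomal proteins that enter from the cytoplasm. Most ribosomal protein messages belong to the terminal oligopyrimidine (TOP) class: transcription starts at a C followed by a stretch of C and T, and mTORC1, acting through Larp1, controls how much of the message is translated or stored. Myc raises transcription of many genes for ribosomal proteins, assembly factors and polymerase I.

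The starts of these genes are shown because the message class is defined there. Of the 83 genes, 63 matched a RefSeq promoter window on GRCm38.p6. In 25 of the 63 (39.7%) the 30 bases centred on the annotated start, 15 before it and 15 after it, held an unbroken run of at least 8 C or T on the gene's strand, against 11.9% of all 27025 windows. The 4 genes that passed a test in at least 1 comparison (Rps2, Rpsa, Rpl10a, Rpl7l1) had runs of 2 to 7, as did 38 of the 63 genes in all. They are shown beside Rps27, Rps27l, Rpl22l1, Rplp2 and Rpl38, uncalled genes chosen for runs of 9 or 10. Capitals mark the longest run. The run need not begin at the start, and that of Rps27l ends before it, so a run does not assign a gene to the TOP class.
Rps2 (chr17:24720048-24720077, plus strand): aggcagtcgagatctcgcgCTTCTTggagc
Rpsa (chr9:120127751-120127780, plus strand): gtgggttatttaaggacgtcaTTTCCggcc
Rpl10a (chr17:28328456-28328485, plus strand): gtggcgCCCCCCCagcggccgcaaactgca
Rpl7l1 (chr17:46782642-46782671, minus strand): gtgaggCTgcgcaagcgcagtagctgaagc
Rps27 (chr3:90213634-90213663, minus strand): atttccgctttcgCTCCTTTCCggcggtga
Rps27l (chr9:66946071-66946100, plus strand): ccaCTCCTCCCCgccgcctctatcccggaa
Rpl22l1 (chr3:28805493-28805522, plus strand): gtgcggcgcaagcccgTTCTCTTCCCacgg
Rplp2 (chr7:141447636-141447665, plus strand): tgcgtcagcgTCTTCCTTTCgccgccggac
Rpl38 (chr11:114668565-114668594, plus strand): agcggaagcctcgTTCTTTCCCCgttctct

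The letters CTTTCC stood on the gene's strand of the 300-base window, 250 bases before the start and 50 after, in 34.9% of the 63 genes and in 14.05% of all windows. On either strand the shares were 47.6% and 26.3%. The ETS-type letters CCGGAAG were present on either strand in 39.7% of the 63 and in 9.12% of all windows. Matches of the letter sets may share the bases CC, and a match describes the letters only. The median log2 fold change at day 1 was 0.60 over the 25 genes with a run of at least 8 and 0.64 over the 37 tested genes with a shorter one.

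The libraries held 46401496 to 103912264 counts, and 22986 to 34768 genes had at least 1 count. All 14 LSEC markers (Stab1, Stab2, Lyve1, Clec4g and others) were present in every library, with a summed level of 19794 to 23654 CPM (counts scaled to the library total, with trimmed mean of M values, TMM, factors) in healthy and 11694 to 18032 CPM after CCl4. Healthy replicate 4 stood apart by its hepatocyte markers, whose summed level was 8182 CPM against 185 to 352 CPM in the other healthy libraries. Day 3 replicate 4 had the 22986 detected genes, the fewest. Some counts of calls, and the medians of the ribosomal protein genes at days 1 and 3, are also given without these libraries. The medians of other gene lists are given with all libraries only.

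In healthy LSECs the 83 genes together took 2.22%, 1.89%, 2.00% and 1.07% of the counts in replicates 1 to 4, a mean of 1.79% ± 0.502 (SD, n = 4). The share was 2.74% and 2.60% at day 1. It was 4.06%, 3.79%, 2.23% and 1.45% at day 3, and 1.63%, 2.04%, 1.89% and 1.66% at day 7. Both day 1 libraries lay above every healthy library, the day 3 libraries ran from below 3 of the 4 healthy ones to above all of them, and the day 7 libraries lay within the healthy range. That range reaches down through healthy replicate 4. Without it the lowest healthy share was 1.89%, and day 7 replicates 1 and 4, at 1.63% and 1.66%, lay below. In bulk samples fewer cells of a type and less RNA per cell cannot be told apart. The mean shares were 2.67% ± 0.0995 (SD, n = 2) at day 1, 2.88% ± 1.25 (SD, n = 4) at day 3 and 1.81% ± 0.193 (SD, n = 4) at day 7. Without healthy replicate 4 the healthy mean was 2.03% ± 0.168 (SD, n = 3), and without day 3 replicate 4 the day 3 mean was 3.36% ± 0.988 (SD, n = 3).

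**Figure D1:**
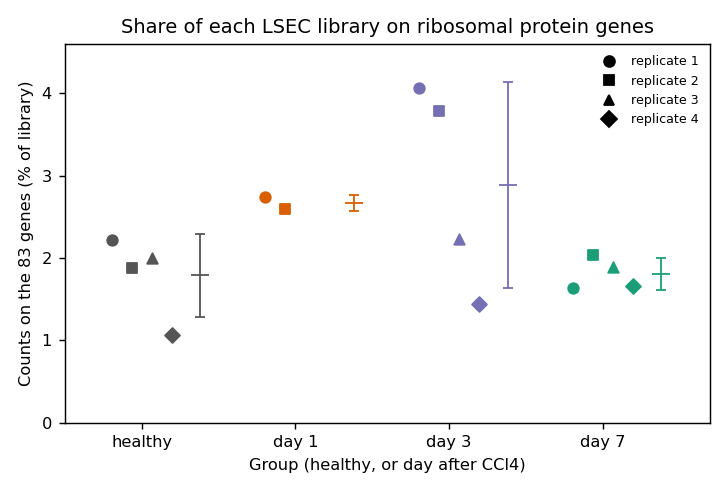
Percent of each library's counts that fell on the 83 ribosomal protein genes, by group; symbols are libraries, and the horizontal tick with its bar is the mean and SD. The 2 day 1 libraries lay at 2.74% and 2.60%, above the highest healthy library at 2.22%, and the day 3 libraries spread from 1.45% to 4.06%.

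Levels were compared between genes per kilobase of the main messenger RNA as annotated. In healthy cells Rps27, a zinc-finger protein of the small subunit, was the highest at 1803 CPM per kb, followed by Rpl37a at 879, Rps29 at 796, Rpl13 at 753 and Rpl32 at 687. At the low end stood Rpl10l at 0, Rpl3l at 0.0796 and Rpl39l at 0.662 CPM per kb. Rps15a, at 23.4 CPM per kb, has an annotated message of 5130 bases, against a median of 775 bases. Without Rpl3l, Rpl39l and Rpl10l, the mean healthy level of the other 80 genes ran from 29.9 CPM for Rpl29 to 622 CPM for Rps27.

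The genes moved together from library to library. Within groups, the median correlation of 2 members' log2 CPM across the 14 libraries, after taking off the group means, was 0.94, a description over 3321 pairs that share library and depth. It was 0.94 without healthy replicate 4, 0.91 without day 3 replicate 4 and 0.86 without both. A total of 80 of the 82 had a median correlation with the rest over 0.8. The exceptions were Rpl3l at 0.76 and Rpl7l1 at 0.02. Taking off each library's median member reduced the median SD between healthy libraries from 0.53 to 0.14 (log2 CPM), and between day 3 libraries from 0.95 to 0.24. Over all tested genes the median SD was 0.42 between healthy and 0.79 between day 3 libraries. At days 1 and 7 it was 0.25 and 0.43 over all tested genes, and 0.10 and 0.26 over the members.

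A single healthy library carried most of the spread within its group. At day 3 the spread was wider, as it also was over all tested genes. The median member lay higher in day 3 replicates 1 and 2 than in replicates 3 and 4. In healthy replicate 4, 81 of the 82 genes were the lowest of the 4 healthy libraries, and the median member stood at 0.593 times the healthy mean. The one gene not lowest there was Rpl7l1, at 91.5 CPM against 76.8, 91.3 and 85.1 CPM in replicates 1 to 3. In day 3 replicate 4, 82 of 82 genes were the lowest of their group and the median member was at 0.672 times the healthy mean, while it was at 2.59, 2.26 and 1.21 times in day 3 replicates 1, 2 and 3. Both day 1 libraries were close to each other, at 1.64 and 1.57 times. The day 7 libraries lay at 0.794, 1.11, 1.08 and 0.92 times the healthy mean.

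**Figure D2:**
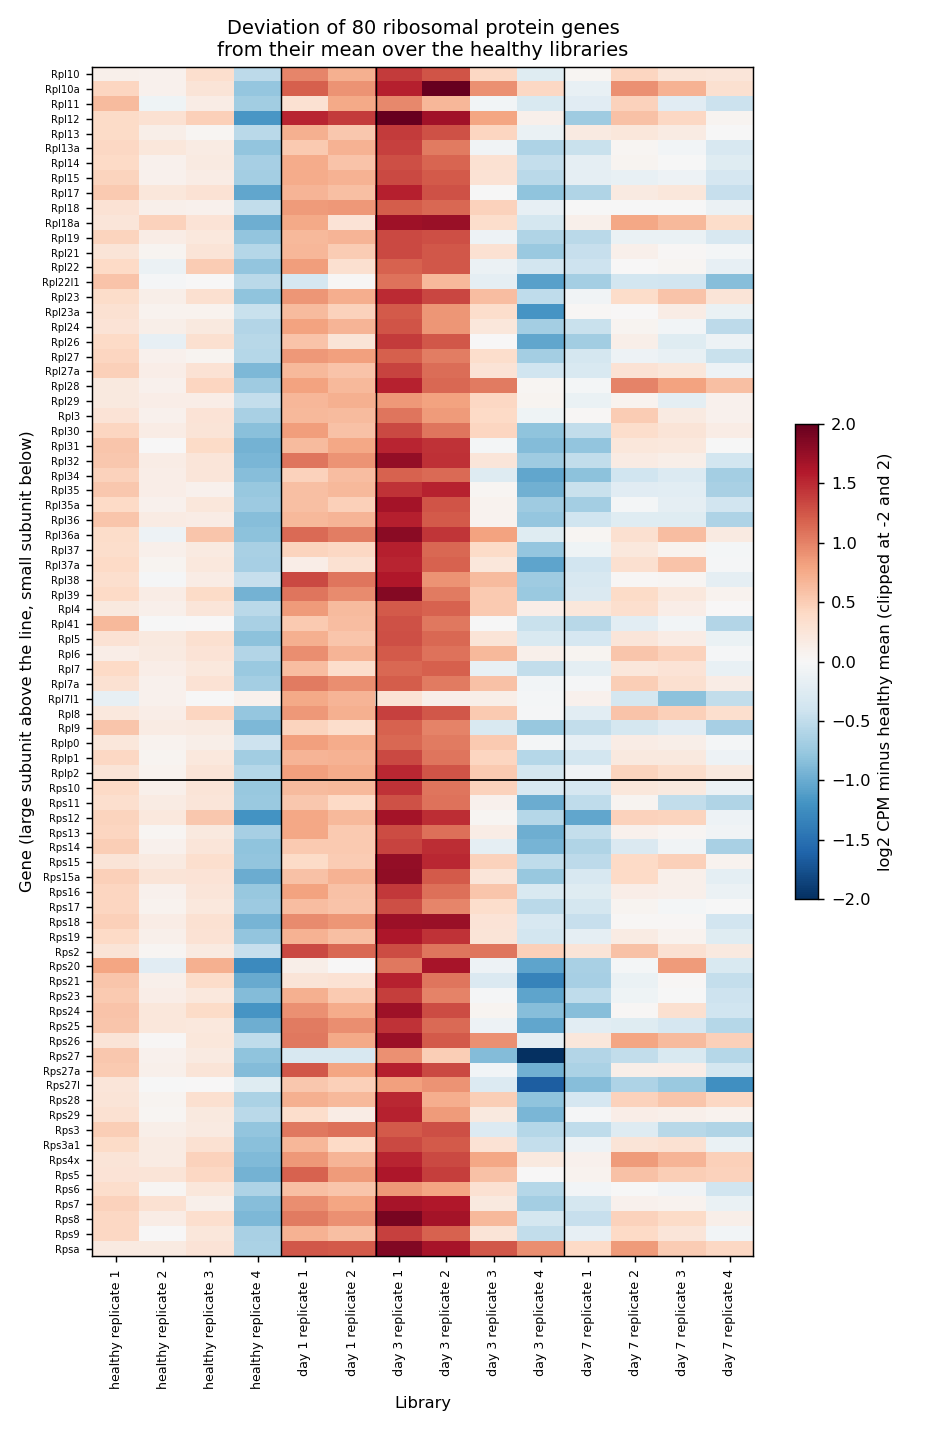
Log2 CPM of 80 ribosomal protein genes in each of the 14 libraries minus the gene's mean over the healthy libraries, with red above and blue below (color clipped at -2 and 2); Rpl3l, Rpl39l and Rpl10l are left out for their low counts. The columns of healthy replicate 4 and day 3 replicate 4 are blue in nearly every row, and those of day 1 and of day 3 replicates 1 and 2 are red in nearly every row.

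Markers of other cells moved with this pattern in part. The 11 monocyte and neutrophil markers summed to 13543 and 8254 CPM in day 3 replicates 1 and 2, where ribosomal protein genes were high, and to 1562 and 1431 CPM in replicates 3 and 4. They summed to 8756 and 4618 CPM at day 1, 559 to 1527 CPM in healthy and 4336 to 9842 CPM at day 7. Of the 11, 5 were higher at day 1, 4 at day 3 and 1 at day 7 (edgeR, adjusted p under 0.05). Among all 26626 tested genes 644, 1229 and 582 were higher at these times. In what follows "sums" are those of the markers. The day 7 sums overlapped with those of day 1, but Lyz2 made up most of the sums at days 3 and 7. Lyz2 had 6837, 9304, 9056 and 3919 CPM in day 7 replicates 1 to 4, and 1701 and 1509 CPM at day 1. In day 3 replicates 1 to 4 it had 8376, 5488, 1347 and 1266 CPM. The median marker's log2 deviation from the healthy mean was 2.81 and 3.85 at day 1, and 1.12 to 1.38 at day 7. In day 3 replicates 1 to 4 that deviation was 4.53, 3.76, 0.67 and 0.06. At day 7 the ribosomal protein genes were at or near the healthy level. The 10 hepatocyte markers summed to 26.9 and 123 CPM at day 1, and their sums ran from 816 up to 2851 CPM at day 3 and reached 771 to 6055 CPM at day 7. None of the 10 passed the edgeR test against healthy, 9 had an unadjusted p under 0.05 at day 1 and 0 at days 3 and 7, DESeq2 called 9, 0 and 0, and limma-voom called 0, 1 and 5. The 12 stellate cell markers ran from 147 to 267 CPM in healthy and from 835 to 2627 CPM at day 3, and 10 of 12 were higher at day 3. At day 7 they ran from 451 to 7469 CPM, and 10 of 12 were again higher. The 8 B, T and NK cell markers summed to 38.3 CPM in healthy replicate 4 against 135 to 199 CPM in the other healthy libraries, and to 285, 185, 108 and 22.3 CPM in day 3 replicates 1 to 4, low and high in the same libraries as the ribosomal protein genes. At day 1, where those genes were high, the sums were 74.8 and 72.1 CPM. None of the 8 passed the edgeR test against healthy, 1, 0 and 0 had an unadjusted p under 0.05 at days 1, 3 and 7, and DESeq2 and limma-voom called 0. In day 3 replicate 4 fewer than 3 counts were found for 1 monocyte or neutrophil, 2 B, T or NK cell and 2 cholangiocyte markers, in day 1 replicate 1 for 1 hepatocyte and 1 stellate marker, and in healthy replicates 1 and 2 for 1 stellate marker each. The part of these cells in the levels of the ribosomal protein genes was not tested.

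At day 1 against healthy, 78 of the 82 genes had a fold change above 0, with a median log2 fold change of 0.60 (1.52-fold) against -0.03 over all 26626 tested genes. Genes of the large subunit (median 0.60, n = 50) and of the small subunit (median 0.59, n = 32) had similar medians. On CPM, both day 1 libraries lay above every healthy library for 67 of the 82 genes, while 20.0% of all tested genes did so. The count was also 67 without healthy replicate 4, against 22.3% of all genes. That library was the lowest healthy one for 81 of the 82 genes, so leaving it out does not test this count. After adjustment over all genes, 2 of 82 rose and none fell, and 2.42% of all tested genes rose. The 2 were Rps2 and Rpsa, both of the small subunit. In all, 18 of the 82 had an unadjusted p under 0.05, as did 4759 of all 26626 tested genes. Without healthy replicate 4 the median at day 1 was 0.41. The count of calls was 1 without healthy replicate 1 (1.59% of all genes rose in that fit), 1 without healthy replicate 2 (1.75%), 1 without day 1 replicate 2 (1.12%), 0 without day 1 replicate 1 (0.443%) and 7 without day 3 replicate 4 (3.97%). By limma-voom with weights for library quality, 20 of 82 rose, against 9.45% of all genes.

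Rps2, the small-subunit protein at the entry of the messenger RNA channel (ENSMUSG00000044533, chr17:24718116-24721929), had 191, 164, 181 and 117 CPM in healthy replicates 1 to 4. It had 404 and 356 CPM at day 1, and 396, 339, 337 and 225 CPM at day 3. At day 7 it had 192, 243, 199 and 184 CPM. All 6 libraries of days 1 and 3 were above the highest healthy one, and the day 7 libraries overlapped with healthy. Its log2 fold change was 1.21 ± 0.24 (SE) at day 1 (edgeR, adjusted p = 0.0112) and 0.99 ± 0.20 at day 3 (adjusted p = 0.0123), and 0.32 ± 0.20 at day 7 (adjusted p = 0.377). Without day 1 replicate 1, the day 1 value was 1.09 with an adjusted p of 0.183, and without healthy replicate 4 the day 3 value was 0.74 with an adjusted p of 0.052. An exon of Rps2 overlaps the small nucleolar RNA host gene Snhg9, and 11 rows named as its pseudogenes held 49.2% of the counts of Rps2 and those rows together. With those rows added the log2 fold change at day 1 was 1.22.

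Rpsa, the laminin receptor protein that sits on the small subunit (ENSMUSG00000032518, chr9:120127689-120132369), had 224, 224, 238 and 126 CPM in healthy LSECs. It had 466 and 462 CPM at day 1, and 709, 620, 464 and 375 CPM at day 3. At day 7 it had 261, 356, 280 and 262 CPM. Every library after CCl4 was above every healthy one, and day 3 replicate 4, in which the median member was below healthy, was above healthy here. The log2 fold change was 1.19 ± 0.28 at day 1 (edgeR, adjusted p = 0.0287), 1.42 ± 0.24 at day 3 (adjusted p = 0.00509) and 0.51 ± 0.24 at day 7 (adjusted p = 0.235). At day 1 the adjusted p was 0.0567 without healthy replicate 1, 0.0534 without healthy replicate 2, 0.245 without day 1 replicate 1 and 0.118 without day 1 replicate 2. At day 3 it stayed under 0.05 in each of the 25 alternatives, at most 0.0247.

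At day 3 against healthy, 80 of the 82 genes had a fold change above 0. The median was 0.71 (1.63-fold), and the median of all tested genes was itself at 0.18. The members' median was 0.35 without healthy replicate 4, 0.87 without day 3 replicate 4 and 0.69 without both. Only for Rps2 and Rpsa were all 4 day 3 libraries above all healthy ones (2 of 82, with 7.53% of all tested genes doing so). Without day 3 replicate 4 this held for 33 of 82, against 13.8% of all genes. After adjustment 3 of 82 rose, Rpsa, Rpl10a and Rps2, and none fell, while 4.62% of all genes rose. At an unadjusted p under 0.05 there were 30 of the 82, and 5906 of all 26626 tested genes. The count of 3 rises after adjustment turned on single libraries. Without day 3 replicate 4, 39 of 82 rose, against 6.52% of all genes, among them Rplp0, Rplp1, Rplp2, Rpl13, Rpl23, Rpl38, Rps19 and Rps4x. Without healthy replicate 4, 1 rose, Rpsa, against 2.57% of all genes. With both left out, an alternative added after the data were seen, 19 of 82 rose against 4.95% of all genes. By limma-voom, which gives less weight to libraries far from their group, 76 of 82 rose against 15.9% of all genes, and by DESeq2 13 rose against 8.83%.

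Rpl10a, part of the L1 stalk near the exit site (ENSMUSG00000037805, chr17:28328471-28331033), had 116, 92.1, 103.6 and 50.7 CPM in healthy LSECs. It had 198 and 161 CPM at day 1, and 253, 356, 162 and 115 CPM at day 3. At day 7 it had 77.8, 163, 141 and 108 CPM. Day 3 replicate 4 fell below healthy replicate 1, so the groups overlapped. The log2 fold change was 1.29 ± 0.35 at day 3 (edgeR, adjusted p = 0.043), 0.98 ± 0.41 at day 1 (adjusted p = 0.227) and 0.43 ± 0.35 at day 7 (adjusted p = 0.508). The day 3 call was lost without any one of the healthy replicates, without either day 1 library, without day 3 replicates 1, 2 or 3, and without day 7 replicates 3 or 4, with adjusted p from 0.0531 to 0.113. Its 3 pseudogene rows held 22.9% of their joint counts.

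**Figure D3:**
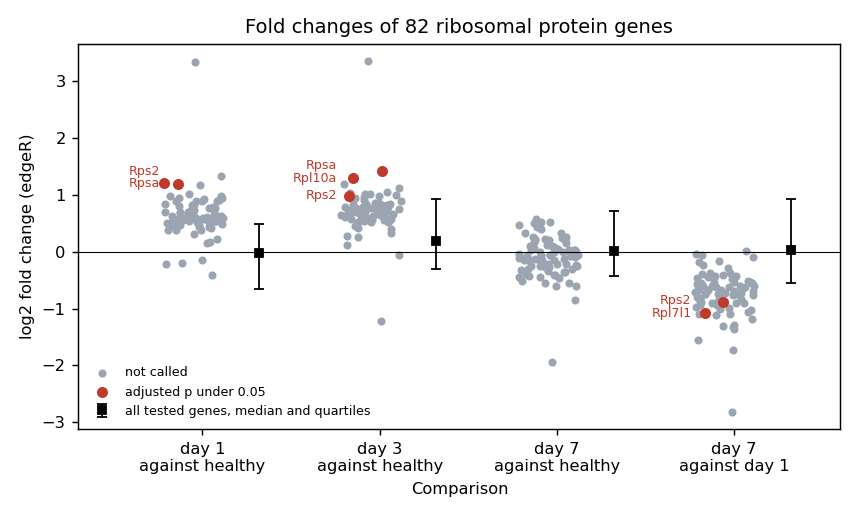
Log2 fold changes of the 82 tested ribosomal protein genes in the 4 comparisons (points, red for adjusted p under 0.05 by edgeR), beside the median and quartiles of all 26626 tested genes (black squares and bars). The cloud sat at a median of 0.60 at day 1, 0.71 at day 3 and -0.09 at day 7 against healthy; the single points near 3.3 are Rpl3l.

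At day 7 against healthy, 29 of the 82 genes were above 0 and 53 below, with a median of -0.09 against 0.02 over all genes. At an unadjusted p under 0.05 there was 1 of the 82, Rpsa, and 5609 of all 26626 tested genes. No member passed the edgeR test, and 3.18% of all tested genes changed. DESeq2 also called 0, against 10.2% of all genes, and limma-voom called 3 of 82 against 26.5% of all genes. Without day 3 replicate 4, whose spread enters the common estimate, 1 fell, against 8.19% of all genes changed. The sign of the median was not stable, from -0.26 to 0.04 over the alternatives.

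Between day 7 and day 1, 81 of the 82 genes were lower at day 7, with a median log2 fold change of -0.71 (0.611-fold) against 0.03 over all genes. For 71 of the 82 all 4 day 7 libraries lay below both day 1 libraries, which held for 23.1% of all tested genes. This comparison uses the day 1 libraries of the one above, so the direction of each follows in part from the same 2 samples. At an unadjusted p under 0.05 there were 18 of the 82, and 6541 of all 26626 tested genes. After adjustment 2 fell, Rpl7l1 and Rps2 (log2 fold change -0.89 ± 0.24, edgeR, adjusted p = 0.0381), with 4.4% of all genes falling. A fit to the day 1 and day 7 libraries alone gave 38 of 82 against 9.03% of all genes, and limma-voom gave 38 against 15.0%. The count was 0 without day 1 replicate 1 (0.389% of all genes fell in that fit) or replicate 2 (0.869%), 11 without day 3 replicate 4 (7.22%) and 4 without day 3 replicate 1 (4.32%). It was 1 without healthy replicates 2 or 3 (3.49% in each) or day 7 replicates 1, 3 or 4 (4.0%, 1.98% and 2.17%).

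Rpl7l1, a relative of Rpl7 that is known as an assembly-stage protein of the large subunit (ENSMUSG00000063888, chr17:46773907-46782672), stood apart from the rest. It had 76.8, 91.3, 85.1 and 91.5 CPM in healthy LSECs and 145 and 138 CPM at day 1. It had 105, 93.4, 93.5 and 83.7 CPM at day 3, and 90.9, 67.5, 48.6 and 61.4 CPM at day 7. It was high in both day 1 libraries only, the healthy and day 3 libraries overlapped, and healthy replicate 4 was not low. The log2 fold change was -1.08 ± 0.21 between day 7 and day 1 (edgeR, adjusted p = 0.00897), 0.72 ± 0.21 at day 1 against healthy (adjusted p = 0.0795) and 0.12 ± 0.18 at day 3 (adjusted p = 0.733). Without day 1 replicate 1 or 2 the adjusted p of the first was 0.201 or 0.116.

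**Figure D4:**
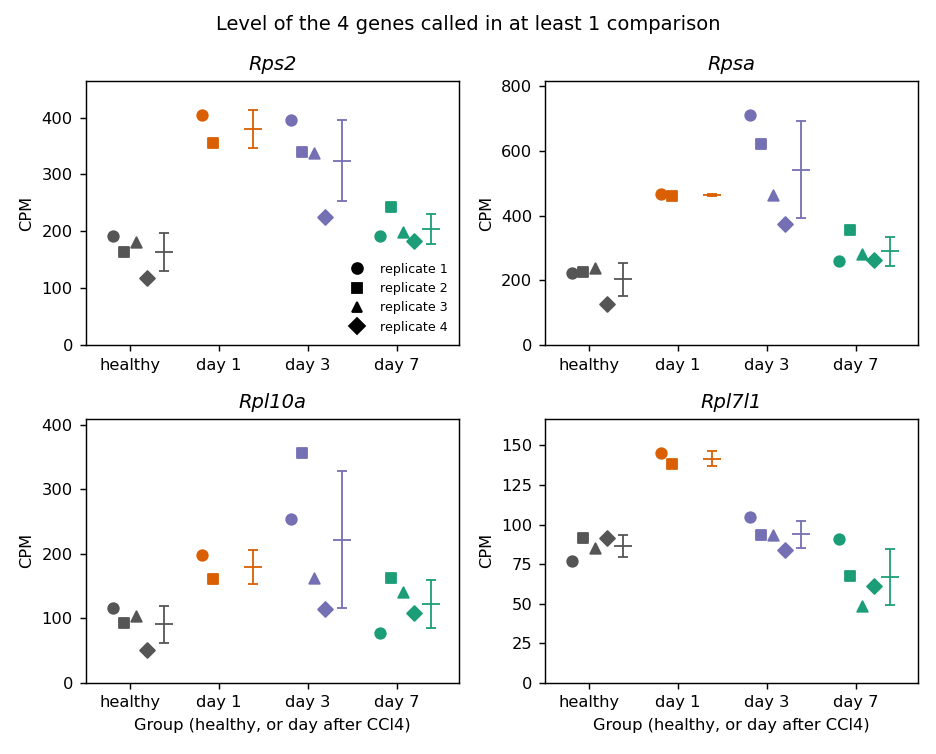
CPM of Rps2, Rpsa, Rpl10a and Rpl7l1 in each library by group; symbols are libraries, ticks and bars the mean and SD. Rpl7l1 had 145 and 138 CPM in the 2 day 1 libraries and at most 105 CPM elsewhere, while Rpsa was above the healthy libraries at every time after CCl4.

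The stalk of the large subunit, which recruits elongation factors, is made of Rplp0 with Rplp1 and Rplp2. Rplp0 had 487, 436, 451 and 310 CPM in healthy, 733 and 695 CPM at day 1, 921, 851, 595 and 406 CPM at day 3, and 371, 459, 452 and 403 CPM at day 7. Both day 1 libraries were above healthy, 3 of the 4 day 3 libraries were, and day 7 overlapped with healthy. The log2 fold change of Rplp0 was 0.76 ± 0.28 at day 1 (edgeR, adjusted p = 0.164) and 0.72 ± 0.24 at day 3 (adjusted p = 0.0878). Rplp1 and Rplp2 had 0.63 and 0.75 at day 1 and 0.67 and 0.86 at day 3, and neither passed the test.

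Rpl5, Rpl11 and Rpl23 bind Mdm2, the ubiquitin ligase of p53, when ribosome assembly is disturbed. Their log2 fold changes were 0.57, 0.47 and 0.74 at day 1, 0.67, 0.33 and 0.86 at day 3, and -0.07, -0.14 and 0.23 at day 7. None passed the test. Rps6, the substrate of the S6 kinases, had 0.53, 0.41 and -0.17, Rpl13a, a member of the interferon-gamma-induced translation silencing complex, 0.55, 0.58 and -0.25, and Rps19, the gene most often affected in Diamond-Blackfan anemia, 0.58, 0.89 and -0.10 at days 1, 3 and 7, again without passing. Rpl38, known for its part in translating Hox messages, had 138, 108, 121 and 79.97 CPM in healthy and 273 and 229 CPM at day 1. Its log2 fold change of 1.17 ± 0.41 at day 1 had an adjusted p of 0.14 (edgeR), and its fall of -1.30 ± 0.41 between day 7 and day 1 one of 0.0684. Rpl12 and Rps3, named after their values were seen, were also high at day 1: Rpl12 had a log2 fold change of 1.33 ± 0.50 (edgeR, adjusted p = 0.168) and Rps3 one of 1.01 ± 0.46 (adjusted p = 0.264), and Rps3 fell by 1.55 between day 7 and day 1 with an adjusted p of 0.0513.

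Because the genes moved as a block, each was also set against the median member of the same library (log2 CPM of the gene minus that median), which takes off the shift of the library. These differences are a description with no test, and the genes were picked from them after the values were seen, apart from the variant copies and the genes above. Rps27 had the lowest day 1 ratio to healthy of all members on this scale, while Rpl39l, with few reads, was lower at days 3 and 7, and Rps27l, Rpl22l1 and others were lower at day 7. Rps27 stood 1.74, 1.57, 1.49 and 1.52 above the median in healthy LSECs, 0.56 and 0.54 above at day 1, 1.05, 0.81, 0.49 and 0.09 above at day 3, and 1.38, 0.94, 1.21 and 1.20 above at day 7. All 10 libraries after CCl4 lay below all 4 healthy ones, and the day 1 ratio to healthy was 0.491. In CPM, Rps27 had 859, 629, 665 and 336 in healthy and 471 and 470 at day 1, so the groups overlapped, and its log2 fold change was -0.40 ± 0.59 (edgeR, adjusted p = 0.817). Rps29, Rpl37a, Rps21 and Rps20 were also lower at day 1 than in healthy on this relative scale, at ratios of 0.733, 0.713, 0.741 and 0.643 without overlap, although Rps29 and Rpl37a still stood above the median member. The annotated messages of Rps27, Rps29, Rpl37a and Rps21 are 345, 390, 558 and 394 bases long. The annotated message taken for Rps20 has 3706 bases, most of the gene (chr4:3831334-3835665), so the main message may be shorter. Across 80 members, the correlation (Spearman) of annotated message length with the log2 fold change at day 1 was 0.22. It is a description across genes that are not independent, and it includes the annotated length of Rps20.

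Rpsa lay at -0.20, 0.08, 0.00 and 0.11 against the median member in healthy LSECs, 0.54 and 0.52 at day 1, 0.40, 0.40, 1.01 and 1.53 at day 3, and 0.79, 0.70, 0.44 and 0.60 at day 7. It was higher in each of the 10 libraries after CCl4 than in any healthy one, at ratios of 1.44, 1.79 and 1.55 at days 1, 3 and 7. Rpl10a was likewise higher than healthy without overlap at all 3 times, at ratios of 1.26, 1.56 and 1.45. Rps2 was higher without overlap at day 1 (ratio 1.45) and overlapped with healthy at days 3 and 7. At day 7, Rps4x, the X-linked form of the small-subunit protein eS4, was at a ratio to healthy of 1.53 without overlap, and Rps26 and Rpl28 were at ratios of 1.54 and 1.60.

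**Figure D5:**
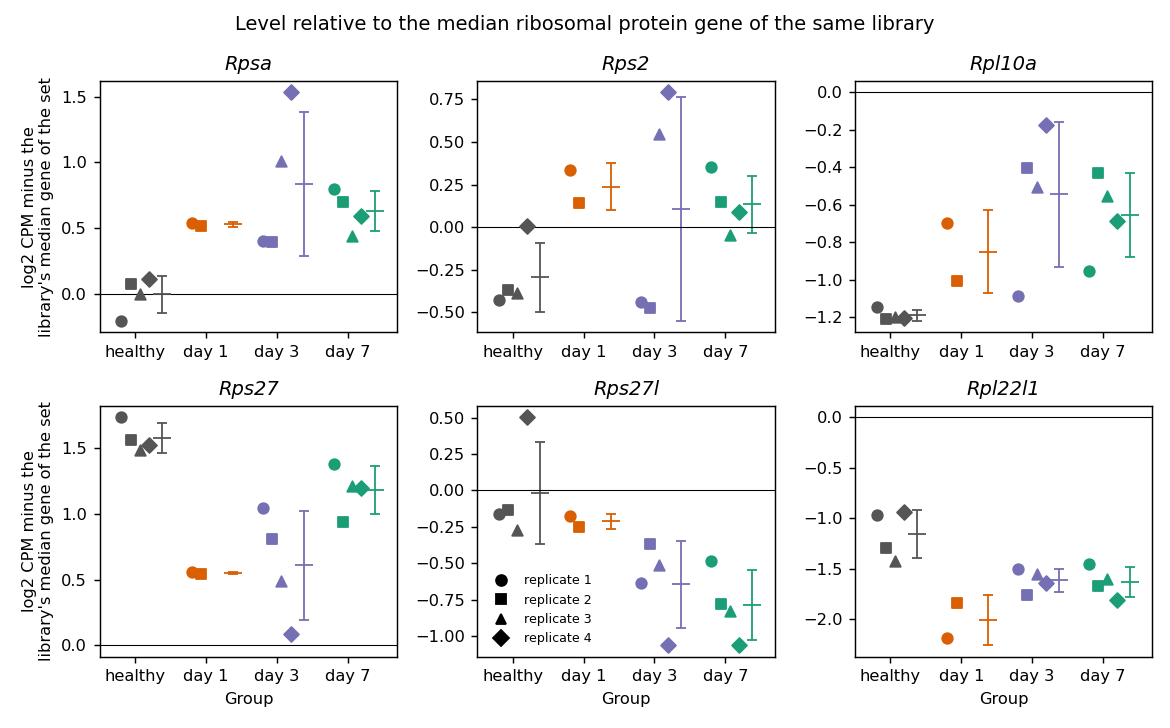
Level of 6 ribosomal protein genes relative to the median ribosomal protein gene of the same library (log2 CPM difference), by group; symbols are libraries, ticks and bars the mean and SD, and the axis range differs between panels. Rpsa and Rpl10a were above the 4 healthy libraries in all 10 libraries after CCl4, and Rps27 and Rpl22l1 were below them.

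The variant copies differed in level and pattern. Rps27l, a p53 target that can replace Rps27, had 230, 194, 197 and 166 CPM in healthy, 284 and 271 CPM at day 1, 346, 365, 162 and 62.2 CPM at day 3, and 108, 128, 116 and 82.98 CPM at day 7. The day 7 libraries were below all healthy and all day 1 libraries. Its log2 fold change at day 7 was -0.85 ± 0.40 against healthy (edgeR, adjusted p = 0.238) and -1.35 ± 0.47 against day 1 (adjusted p = 0.0924). Per kilobase, the ratio of Rps27l to Rps27 was 0.185, 0.213, 0.205 and 0.341 in healthy and 0.416 and 0.399 at day 1. In the day 3 libraries it was 0.216, 0.305, 0.345 and 0.312, and in the day 7 libraries 0.190, 0.211, 0.168 and 0.144. The day 1 ratios were the highest of the 14 libraries.

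Rpl22l1, a paralog of Rpl22 whose level Rpl22 is known to hold down, had 131, 86.8, 88.6 and 60.9 CPM in healthy and 70.3 and 90.3 CPM at day 1. It had 189, 139, 78.3 and 41.7 CPM at day 3, and 55.1, 68.7, 68.2 and 49.3 CPM at day 7. In CPM all groups after CCl4 overlapped with healthy, and against the median member every library after CCl4 was lower than every healthy one, at ratios of 0.553, 0.727 and 0.719 at days 1, 3 and 7. Its log2 fold change was -0.19 ± 0.46 at day 1 while that of Rpl22 was 0.52 ± 0.44, and neither passed the test. Per kilobase the ratio of Rpl22l1 to Rpl22 was 0.67 to 1.13 in healthy and 0.423 and 0.774 at day 1, which overlapped.

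Rpl3l, the copy of Rpl3 known from heart and skeletal muscle, had 14, 8, 13 and 6 reads in healthy, 129 and 63 at day 1, 224, 100, 10 and 0 at day 3, and 9, 23, 0 and 18 at day 7. The highest libraries were both of day 1 and day 3 replicates 1 and 2, and no other library exceeded 23 reads. The log2 fold change was 3.33 ± 1.43 at day 1 (edgeR, adjusted p = 0.238) and 3.34 ± 1.31 at day 3 (adjusted p = 0.148), and at its highest, day 3 replicate 1, Rpl3l stood at 0.00347 of Rpl3 per kilobase. Rpl39l, the copy of Rpl39 known from testis and some cell lines, had 61, 75, 43 and 17 reads in healthy, 20 and 62 at day 1, 38, 23, 6 and 0 at day 3, and 6, 18, 3 and 15 at day 7, with a log2 fold change of -1.93 ± 1.01 at day 7 (edgeR, adjusted p = 0.287). Both stayed under 3 CPM in every library.

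The symbol rule does not reach some ribosomal proteins and a scaffold of the ribosome. Fau, a fusion that gives the protein eS30, had a log2 fold change of 0.34 at day 1 and 0.57 at day 3 without passing the test. Rack1, the signaling scaffold on the small subunit, had 269, 239, 284 and 128 CPM in healthy and 708, 606, 372 and 312 CPM at day 3, with no overlap. It rose by a log2 fold change of 1.12 ± 0.30 (edgeR, adjusted p = 0.0396), the 1 call at day 3 among the 6 genes of that list. Without healthy replicate 4 the value was 0.79 with an adjusted p of 0.102 by edgeR. The call was also lost without any other healthy library, either day 1 library, day 3 replicates 1 or 2, or day 7 replicates 3 or 4, with adjusted p from 0.0565 to 0.104.

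The gene lists below stand beside the calls among all 26626 tested genes. Of these, 644 rose and 436 fell at day 1, and 1229 rose and 686 fell at day 3. At day 7, 582 rose and 264 fell, and between day 7 and day 1, 971 rose and 1171 fell. For several fits that leave out 1 library, the share of all genes is given above with the members. Of 22 translation factors and other TOP genes, 2 rose at day 1 and none fell (median log2 fold change 0.42), and 4 rose and 1 fell at day 3 (median 0.40). When 1 library was left out, the rises numbered 0 to 2 at day 1, with 0 without day 1 replicate 1 and 1 without healthy replicates 2 or 4, and 1 to 8 at day 3, with 1 without healthy replicate 4 or day 3 replicate 3 and 8 without day 3 replicate 4. Pabpc1, the poly(A)-binding protein, had 1.11 ± 0.25 at day 1 (edgeR, adjusted p = 0.0208) and 1.18 ± 0.21 at day 3 (adjusted p = 0.00625), and Hnrnpa1, an RNA-binding splicing factor, 1.37 ± 0.27 and 1.01 ± 0.23 (adjusted p = 0.0105 and 0.018). Eef2, the translocation factor, rose by 0.82 at day 3 (edgeR, adjusted p = 0.0172), and Eif4a2, a helicase of the cap complex, fell by 0.58 (adjusted p = 0.0384). Eef1a1, at 0.53 and 0.31, and Npm1, at 0.76 and 0.89, did not pass at either time.

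Factors that assemble the ribosome were set beside its proteins. Of 42 biogenesis factors, 15 rose at day 1 (median 0.82), 7 rose at day 3 (median 0.48), and 5 fell at day 7 (median -0.46), with no call in the other direction. Between day 7 and day 1, 35 of 42 fell (median -1.24). Of the ribosomal protein genes 2 of 82 fell (median -0.71), and 4.4% of all tested genes fell. Nhp2, a protein of the particles that guide pseudouridylation, had 37.1, 31.9, 35.6 and 25.7 CPM in healthy, 128 and 103 CPM at day 1, 126, 141, 80.2 and 49.9 CPM at day 3, and 27.6, 30.8, 28.0 and 20.5 CPM at day 7. Every library of days 1 and 3 was above every healthy one, with a log2 fold change of 1.82 ± 0.32 at day 1 (edgeR, adjusted p = 0.00662). Dkc1, the pseudouridine synthase of the same particle, had 1.23 ± 0.20 (edgeR, adjusted p = 0.00388) and Fbl, the 2′-O-methyltransferase, 1.22 ± 0.26 (adjusted p = 0.0179). The count at day 1 was 0 without day 1 replicate 1, 7 without day 1 replicate 2, 5 without healthy replicate 4, 8 without healthy replicate 1, and between 10 and 22 in the other fits that leave out 1 library. The fall between day 7 and day 1 was 6 without day 1 replicate 1, 16 without day 1 replicate 2, and 26 to 38 in the others. At day 3 leaving out 1 library gave 2 to 8 rises, with 2 without healthy replicate 4 or day 3 replicate 3, and at day 7 it gave 0 to 9 falls, with 0 without healthy replicates 1, 2 or 3 or day 7 replicates 2, 3 or 4 and 1 without either day 1 library. The difference between biogenesis factors and ribosomal protein genes was not tested.

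In day 3 replicate 4, where ribosomal protein genes were at a median deviation of -0.57 (log2) from the healthy mean, biogenesis factors were at 0.40. In healthy replicate 4 the deviations were -0.75 and -0.16. Mitochondrial ribosomal proteins, which are nuclear-encoded and serve a separate ribosome, were at -0.66 and -0.18 in the same libraries. Of these 78 genes none passed the edgeR test at day 1 or day 3 (medians 0.14 and 0.24), where 4 and 7 had an unadjusted p under 0.05, DESeq2 called 2 and 3, and limma-voom called 11 and 43. At day 7, 2 fell, and 0 to 15 when 1 library was left out. Between day 7 and day 1, 11 fell, and 0 to 31 when 1 library was left out (0 without day 1 replicate 1 and 31 without day 3 replicate 4), among them Mrps18b by 1.58 on the log2 scale (edgeR, adjusted p = 0.00642).

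Of 14 polymerase I genes 2 rose at day 1 and at day 3, Polr1a and Cd3eap, with log2 fold changes of 1.62 ± 0.31 and 1.29 ± 0.23 at day 1 (edgeR, adjusted p = 0.0102 and 0.00672). Leaving out 1 library changed both counts: it was 0 at day 1 without day 1 replicate 1, and 0 at day 3 without healthy replicate 4 or day 3 replicate 3. Myc, in a list of 18 Myc and mTORC1 genes of which 1 rose at day 1, and 2 rose and 1 fell at day 3, had 49.97, 61.2, 49.5 and 43.6 CPM in healthy, 120 and 99.4 CPM at day 1, and 88.8, 81.3, 180 and 237 CPM at day 3. It was above every healthy library at both times, and at day 3 it was highest in replicates 3 and 4, where ribosomal protein genes were lowest. Its log2 fold change was 1.52 ± 0.31 at day 3 (edgeR, adjusted p = 0.0122) and 1.10 ± 0.36 at day 1 (adjusted p = 0.116). Mxd1, which competes with Myc for Max, rose by 2.43 at day 1 (edgeR, adjusted p = 6.16e-05).

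The counting could split reads between near-identical copies. The 300 rows named as pseudogenes of these genes held 0.0756% to 0.289% of the counts, against 1.07% to 4.06% on the 83 genes, and 60 of the 83 have such rows. Their part differed between genes. Of the joint counts of a gene and its rows, the rows held 62.5% for Rpl35a and 37.3% for Rpl23a, but 0.00117% for Rps29. With the rows named as pseudogenes summed into their genes, the counts of calls were 2, 3, 0 and 2 in the 4 comparisons, as without them. Copies under other names were not summed. An exon of 24 members overlaps another annotated gene, and 59 small nucleolar RNA genes lie inside 30 of them.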

How the data were processed

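RNA of 14 LSEC samples was prepared with a SMART-Seq v4 kit. The authors trimmed the reads after quality control, mapped them with STAR to GRCm38 and assembled and counted with StringTie, and the deposited table holds whole-number counts per Ensembl gene and sample, not normalized. The annotation release, the use of strand and the treatment of reads with several matches are not given in the sources used here, and the reads are described both as single-end and as paired-end. Of 54524 genes, 54495 were found in GENCODE vM21, which gave symbols and coordinates (GRCm38).

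The filterByExpr rule of edgeR, at a count of 10 and a total of 15, kept 26626 genes, and libraries were scaled by TMM. One edgeR 4.0.16 quasi-likelihood model held the 4 groups, with Benjamini-Hochberg adjustment over all tested genes and a threshold of 0.05, in R 4.3.3. The 4 comparisons were days 1, 3 and 7 against healthy and day 7 against day 1. Alternatives included limma 3.58.1 (voom, libraries weighted by quality), DESeq2 1.42.0, other scalings and filters, and leaving out each library. Log2 CPM for the spread used a prior count of 2. Tables were handled in Python 3.11.15 with pandas 2.3.3 and numpy 2.4.6. The model was tested on simulated data, in which 200 genes had a log2 change of 2: it recovered 66 of them at day 1 (3 false calls, 25385 genes), 108 at day 3 (6 false calls, 25322 genes) and 116 at day 7 (0 false calls, 25398 genes). Libraries held 46401496 to 103912264 counts.

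Genes named were the stalk genes and Rpsa, the variant copies with their parents, up to 5 called genes of largest change each way, the 5 highest and lowest in healthy, Rpl5, Rpl11, Rpl23, Rps6, Rpl13a, Rps19, Rpl38, and those that failed the filter. The members and lists were chosen with earlier results of these data known.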

Additional observations from a re-analysis of the deposited data

Results flagged for a closer look

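Healthy replicate 4 was set apart from the other 3 healthy libraries in log2 CPM for 3 named genes. Rpl5 had 6.481 there against 7.49 to 7.618 in the others, Rps15a 5.811 against 7.062 to 7.276, and Rpsa 6.983 against 7.805 to 7.894. These were 3 of 93 groups of 4 libraries examined with Dixon's criterion, and chance flags about 1 in 20 groups. The change from healthy differed between day 7 and day 1 for 2 members, Rpl7l1 and Rps2, by the edgeR test of day 7 against day 1.

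Rows named as pseudogenes of the members were not counted as members, and were added to them only in an alternative fit. Their reads took a larger share of counts than in any healthy library (at most 0.148%) in 6 libraries. The share was 0.2% and 0.188% in day 1 replicates 1 and 2, 0.289%, 0.254% and 0.171% in day 3 replicates 1, 2 and 3, and 0.15% in day 7 replicate 2.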

How the results depend on the processing

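The median log2 fold change of the members kept its direction over the 25 alternatives at day 1 (0.34 to 0.74), day 3 (0.32 to 1.03) and between day 7 and day 1 (-0.78 to -0.36), while at day 7 it lay between -0.26 and 0.04. Scaling by library size alone moved the median of all genes between day 7 and day 1 from 0.03 to 0.15 and that of the members from -0.71 to -0.59. The number of members called depended on the setting, and so did the share of all tested genes called. Over the alternatives that share, in either direction, reached 16.2% at day 1, 27.3% at day 3 and 26.5% at day 7. Between day 7 and day 1 it reached 28.6%. The counts of members that follow stand without the share of their own fit, which is given above for some of them. At day 1 it was 2, and became 20 by limma-voom, 1 with no filter on low counts, 7 with only the healthy and day 1 libraries fitted, 1 with the replicate number as a block and 0 to 7 when 1 library was left out. At day 3 it was 3, and became 13 by DESeq2, 76 by limma-voom, 6 with library size only, 5 with at least 10 counts required in every sample, 5 with the replicate block, 19 without healthy replicate 4 and day 3 replicate 4 together (chosen after seeing the data) and 1 to 39 when 1 library was left out. At day 7 it was 0, and became 3 by limma-voom, 1 with only the healthy and day 7 libraries fitted, 1 without those 2 libraries together and 0 to 1 when 1 library was left out. Between day 7 and day 1 it was 2, and became 4 by DESeq2, 38 by limma-voom, 38 with only those groups fitted, 1 with the replicate block, 25 without those 2 libraries together and 0 to 11 when 1 library was left out. Where day 1 replicate 1 or 2 was left out, the remaining day 1 library was assumed to vary like the other groups. The day 1 share of counts moved from 2.67% to 2.78% without mitochondrially encoded genes in the total and to 2.86% with the pseudogenes added. The cause of these differences was not tested. Samples with the same replicate number did not deviate together (correlations from -0.232 to 0.0577), so the number was not treated as a pairing. At 46401496 counts or more per library, few reads limited the values of Rpl3l, Rpl39l and Rpl10l.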
